A study of Homo sapiens with 12 samples.

Results

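The messenger RNAs of the subunits of RNA polymerases I, II and III and of Mediator were followed in 2 human T-cell acute lymphoblastic leukaemia lines, with and without the histone deacetylase inhibitor chidamide. Members were all rows of the expression table whose symbol begins with POLR1, POLR2 or POLR3 and a letter, or is MED with a number and at most 1 further letter. They were 59 of 25146 genes: 5 named POLR1, 16 named POLR2, 10 named POLR3 and 28 Mediator subunits. All 59 reached the FPKM of 1 in 3 libraries that testing required, so none was lost to that filter. FPKM counts fragments per kilobase of transcript, scaled to the mapped fragments of the library, and levels of different genes are compared here on that length-corrected scale.

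The groups were Jurkat with chidamide, untreated Jurkat, Molt-4 with chidamide and untreated Molt-4, with 3 libraries each. Chidamide (tucidinostat) is a benzamide that inhibits class I histone deacetylases, and the protocol gives 2 µM for 48 h. The labels of the treated libraries read 48 h for replicate 1, 49 h for replicate 2 and 50 h for replicate 3, and any effect of these hours cannot be told apart from the replicates. Whether a group's libraries stem from different cultures is not stated, so p-values measure the spread between these libraries, which may be technical.

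Polymerase I transcribes the large ribosomal RNA precursor in the nucleolus, polymerase II all messenger RNAs, and polymerase III transfer RNAs, the 5S ribosomal RNA and other small RNAs. The 3 enzymes have their own large catalytic subunits and share a set of small ones. Mediator is a large complex of head, middle and tail modules with a detachable kinase module, and it relays signals from transcription factors bound to DNA to polymerase II. Growing leukaemia cells make ribosomes and transfer RNAs at a high rate, which rests on polymerases I and III.

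Libraries labelled Molt-4 carried markers that go against their label. All 9 T-lineage markers were expressed, with summed levels of 760 to 798 FPKM in treated and 872 to 957 FPKM in untreated Molt-4 libraries, and of 1323 to 1390 FPKM in treated and 2120 to 2164 FPKM in untreated Jurkat libraries. The 4 erythroid markers summed to 2793 to 2843 FPKM in treated and 1948 to 2043 FPKM in untreated Molt-4 libraries, but to 6.89 to 79.6 FPKM in treated and 0.35 to 1.93 FPKM in untreated Jurkat libraries. The 4 epithelial markers summed to 209 to 214 FPKM in treated and 81.1 to 86.0 FPKM in untreated Molt-4 libraries, against at most 1.85 FPKM in Jurkat, where EPCAM and CDH1 were below 0.1 FPKM. The 4 myeloid markers summed to 63.0 to 64.7 FPKM in treated and 0.47 to 1.73 FPKM in untreated Molt-4 libraries, with 1 of them at 1 FPKM or more on average in treated cells, and to at most 1.13 FPKM in Jurkat. The 4 markers of fibroblasts and endothelium summed to 62.2 to 67.1 FPKM in treated and 16.1 to 22.1 FPKM in untreated Molt-4 libraries, and to 81.3 to 85.3 FPKM in treated and 76.2 to 86.4 FPKM in untreated Jurkat libraries. The 5 B-cell markers summed to 18.6 to 23.4 FPKM in treated and 3.65 to 5.72 FPKM in untreated Molt-4 libraries, and to 11.8 to 12.8 FPKM in treated and 24.9 to 29.8 FPKM in untreated Jurkat libraries. Treated and untreated ranges of these sums were apart, except in Jurkat for the myeloid markers and those of fibroblasts and endothelium. The part of these markers in the changes reported was not tested. In such bulk RNA fewer cells of a type and less RNA per cell cannot be told apart. The name Molt-4 stands for the label throughout.

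Untreated Jurkat replicate 3 differed from its 2 companions more than any other library did: log2 ratios to them had an SD of 0.332 and 0.337, and other pairs within groups had 0.233 to 0.269. Of the 30 members called in Jurkat, 18 had their level in this library between the treated libraries and the other 2 untreated ones. Jurkat changes of the called members named below are therefore also given without it, but not those of the other lists. The 7SL RNA genes, which polymerase III transcribes, took up 10.1% of all FPKM in untreated Molt-4 replicate 3 and 2.25% to 5.35% elsewhere, and the scaling without them is one of the alternatives.

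With chidamide, more subunit genes were called lower than higher in each line. In Jurkat 11 of 59 members rose and 19 fell (18.6% and 32.2%), where 30.9% of all 13840 genes tested rose and 25.4% fell. In Molt-4 4 members rose and 27 fell (6.78% and 45.8%), where 35.4% of all genes rose and 24.6% fell. The median log2 change of the members was -0.02 in Jurkat and -0.18 in Molt-4, beside 0.04 and 0.08 for all genes. The Jurkat median of the members moved to 0.06 when totals were made equal without 7SL RNA, where that of all genes was 0.10, and to 0.0067 with quantile normalization, where that of all genes was -0.05 and thus lay below that of the members. In Molt-4 quantile normalization gave -0.18 for the members and -0.10 for all genes. The shares of all genes depend on the scaling too: with quantile normalization 25.9% rose and 29.2% fell in Jurkat, and 25.6% rose and 36.4% fell in Molt-4, while 14 members rose and 19 fell in Jurkat, and 3 rose and 28 fell in Molt-4. Without untreated Jurkat replicate 3, 12 members rose and 20 fell in Jurkat, where 32.6% of all genes rose and 25.9% fell. In the values themselves, the libraries of the 2 groups did not overlap for 13 members above and 19 below in Jurkat (33.3% and 27.4% of all genes) and for 4 above and 28 below in Molt-4 (39.0% and 28.3% of all genes). Changes were called at a Benjamini-Hochberg adjusted p under 0.05 from limma on log2(FPKM + 1), a scale that understates the changes of low genes.

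Counts by class stand beside those shares of all genes, 30.9% higher and 25.4% lower in Jurkat and 35.4% and 24.6% in Molt-4. Of the 5 POLR1 genes 1 rose and 4 fell in Jurkat (20.0% and 80.0%), and 0 rose and 4 fell in Molt-4 (0% and 80.0%). Of the 16 POLR2 genes 3 rose and 6 fell in Jurkat, a split of 6 and 5 after quantile normalization and of 4 and 5 when totals were made equal without 7SL RNA, and 0 rose and 11 fell in Molt-4. Of the 10 POLR3 genes 1 rose and 4 fell in Jurkat (10.0% and 40.0%), and 1 rose and 7 fell in Molt-4 (10.0% and 70.0%). The Jurkat split of POLR3 was 2 and 4 for those equal totals. Of the 28 Mediator genes 6 rose and 5 fell in Jurkat (21.4% and 17.9%), and 3 rose and 5 fell in Molt-4 (10.7% and 17.9%). The Molt-4 split was 2 and 9 after quantile normalization, beside 25.6% and 36.4% of all genes. After median-of-ratios scaling it was 2 and 7, beside 33.1% and 27.9% of all genes. Median log2 changes in Jurkat were -0.68 for POLR1, 0.03 for POLR2, -0.19 for POLR3 and 0.0048 for Mediator, of which those of POLR2 and Mediator turned to -0.0046 and -0.02 with median-of-ratios scaling. In Molt-4 they were -0.32, -0.21, -0.28 and -0.10 in the same order, and below 0 in each of the 3 other scalings. With 1 library left out, the falls in Molt-4 numbered 7 to 11 for POLR2, 4 to 7 for POLR3 and 2 to 7 for Mediator. The share of all genes that fell was then 22.0% to 26.5%. The POLR2 falls were 7 without treated Molt-4 replicate 1, and the POLR3 falls were 4 without treated replicate 2 or untreated replicate 1 of that line. Those of Mediator were 2 when untreated Molt-4 replicate 2 was left out, and 3 when it was untreated replicate 1 or treated replicate 3 of that line. The rises of POLR3 genes in Jurkat numbered 0 without treated Jurkat replicate 2 or 3, and 2 without untreated Molt-4 replicate 1 or 3. Of all genes 27.4% and 27.5% rose without those treated libraries, and 30.7% and 30.9% without those untreated ones. No test of the difference between classes was made.

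**Figure D1:**
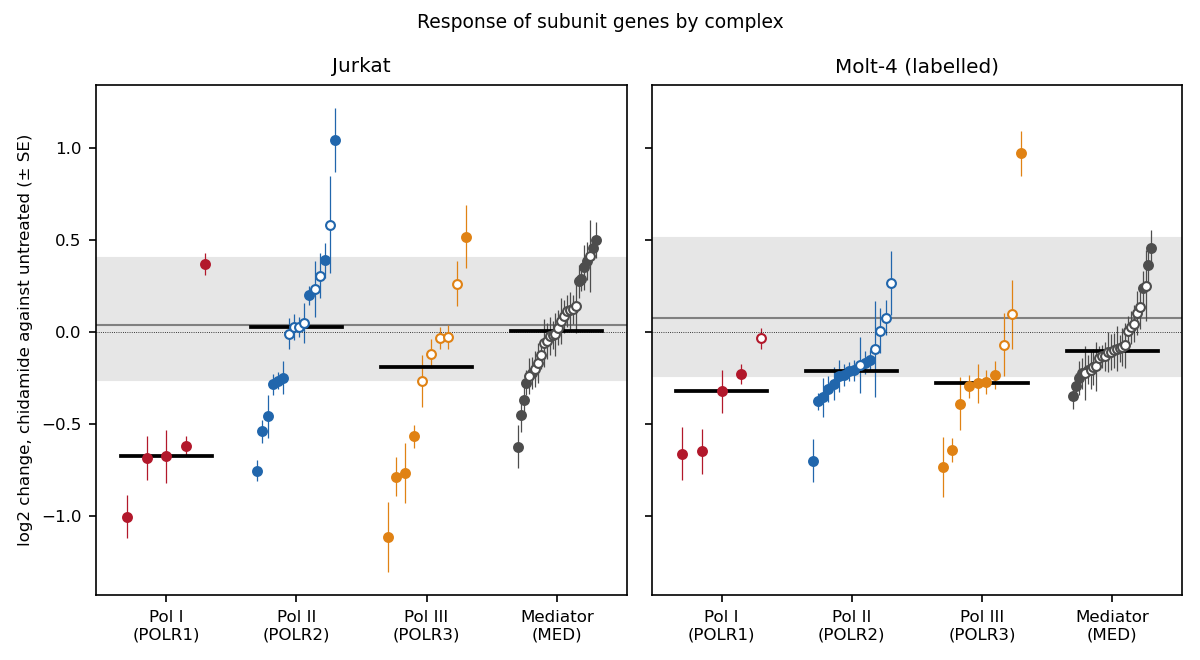
Log2 change with chidamide of each member (vertical axis, log2 of FPKM + 1) by class, for Jurkat and Molt-4; error bars are SE, filled points are called at an adjusted p under 0.05, black bars mark class medians, and the grey line and band are the median and quartiles of all genes tested. The POLR1 median is the lowest of the 4 in Jurkat, at -0.68, while the Mediator genes spread on both sides of 0 in both lines.

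Summed levels show the size of the shift per class. The 10 POLR3 genes summed to 264 ± 9.06 FPKM in treated and 354 ± 43.8 FPKM in untreated Jurkat cells, where replicate 3 had 304 FPKM, and to 267 ± 3.48 FPKM in treated and 315 ± 11.1 FPKM in untreated Molt-4 cells (SD, n = 3 each, here and for all means below). The 28 Mediator genes summed to 795 ± 15.1 FPKM in treated and 818 ± 13.7 FPKM in untreated Jurkat cells, and to 698 ± 6.21 FPKM in treated and 720 ± 10.4 FPKM in untreated Molt-4 cells. In both lines the Mediator sums thus lay closer together than the POLR3 sums.

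**Figure D2:**
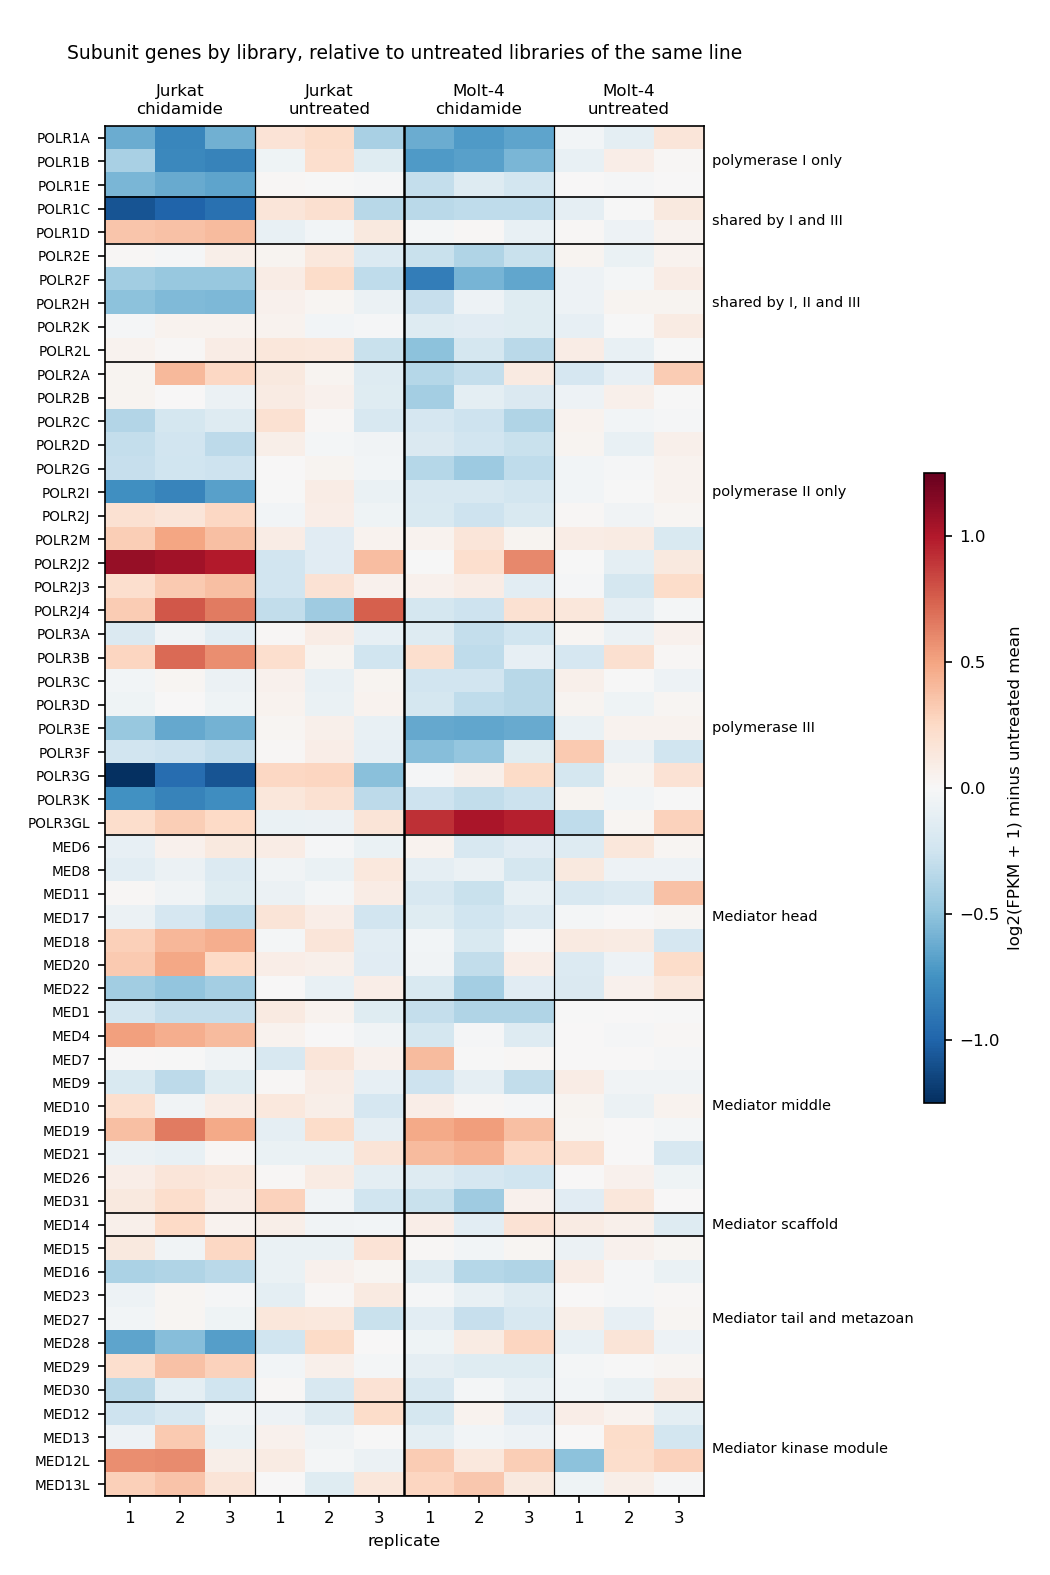
Members (rows, by complex and role) in each of the 12 libraries (columns), as log2(FPKM + 1) minus the mean of the untreated libraries of the same line (colour scale). The rows of POLR1A, POLR1B and POLR1E are blue in all treated libraries, POLR3GL is the reddest row in treated Molt-4 libraries at 42.8 to 46.2 FPKM, and several rows of untreated Jurkat replicate 3 are tinted like the treated ones.

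POLR1A, POLR1B and POLR1E, the members that only polymerase I uses, fell in both lines, as did 16.2% of all genes. POLR1A, the largest catalytic subunit, had 18.4, 15.9 and 18.6 FPKM in treated Jurkat libraries, against 32.4, 33.9 and 21.4 FPKM in untreated Jurkat libraries. Its Molt-4 values were 20.7, 19.3 and 20.1 FPKM in treated Molt-4 libraries, against 31.5, 29.6 and 36.0 FPKM in untreated Molt-4 libraries. The groups did not overlap in either line, and untreated Jurkat replicate 3 was the nearest to the treated libraries. In limma the change was -0.68 ± 0.14 (log2, SE, adjusted p = 0.00157) in Jurkat, -0.88 without untreated Jurkat replicate 3, and -0.66 ± 0.14 (log2, SE, adjusted p = 0.00169) in Molt-4. POLR1B, the second catalytic subunit, averaged 13.1 ± 2.44 FPKM in treated Jurkat cells and 21.6 ± 2.98 FPKM in untreated Jurkat cells, and 16.5 ± 0.894 FPKM in treated Molt-4 cells and 26.5 ± 1.71 FPKM in untreated Molt-4 cells. Its change was -0.68 ± 0.12 (log2, SE, adjusted p = 4.26e-04) in Jurkat, -0.76 without that library, and -0.65 ± 0.12 (log2, SE, adjusted p = 5.81e-04) in Molt-4. POLR1E, which belongs to the subunit pair that helps the enzyme load onto the ribosomal DNA promoter, had 15.6, 14.9 and 14.6 FPKM in treated Jurkat libraries, against 23.9, 23.5 and 23.4 FPKM in untreated Jurkat libraries. Its level in Molt-4 was higher in both conditions, at 32.9, 36.1 and 34.3 FPKM in treated Molt-4 libraries, against 40.8, 40.2 and 40.7 FPKM in untreated Molt-4 libraries. Treated and untreated libraries of POLR1E were well apart in Jurkat and nearer to each other in Molt-4, where the log2 change was -0.23 (adjusted p = 0.00335) against -0.62 (adjusted p = 1.67e-06) in Jurkat. The difference of these responses was 0.39 ± 0.078 (log2, SE, adjusted p = 0.00254).

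POLR1C and POLR1D form the assembly pair that polymerases I and III share, and in Jurkat they moved in opposite directions. POLR1C had 49.1, 51.7 and 54.4 FPKM in treated Jurkat libraries, against 116, 120.1 and 82.0 FPKM in untreated Jurkat libraries. Treated values were below all untreated values, and untreated replicate 3 stood between. The Jurkat change was -1.004 ± 0.12 (log2, SE, adjusted p = 1.60e-05), or -1.18 without that library. In Molt-4 POLR1C had 122, 124 and 124 FPKM in treated Molt-4 libraries, against 143, 154 and 168 FPKM in untreated Molt-4 libraries, and its change there was -0.32 ± 0.12 (log2, SE, adjusted p = 0.0314). That Molt-4 call was lost when any 1 of treated Molt-4 replicates 1, 2 or 3 or untreated Molt-4 replicates 2 or 3 was left out (adjusted p 0.0648 to 0.110, with 4.61e-04 to 0.110 over all its alternatives), and with no filter on low values (adjusted p = 0.0505). POLR1D had 127, 128 and 132 FPKM in treated Jurkat libraries, against 93.5, 97.2 and 109 FPKM in untreated Jurkat libraries. All treated Jurkat libraries were above the untreated ones, with a change of 0.37 ± 0.059 (log2, SE, adjusted p = 2.06e-04), or 0.43 without untreated replicate 3. In Molt-4, where the POLR1D groups overlapped, the change was -0.036 ± 0.059 (log2, SE, adjusted p = 0.625). Between the lines the responses differed by 0.68 for POLR1C and -0.40 for POLR1D (Molt-4 minus Jurkat, adjusted p = 0.00823 and 0.00304).

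Subunits of polymerases I and III that carry other symbols were counted apart from the members. Of 4 such genes 1 rose and 2 fell in Jurkat (25.0% and 50.0%, beside 30.9% and 25.4% of all genes), and 0 rose and 2 fell in Molt-4 (0% and 50.0%, beside 35.4% and 24.6%). CD3EAP, the partner of POLR1E in that subunit pair, averaged 6.56 ± 1.24 FPKM in treated Jurkat cells and 14.8 ± 4.54 FPKM in untreated Jurkat cells, a change of -1.03 ± 0.19 (log2, SE, adjusted p = 5.39e-04), and changed by -0.63 ± 0.19 (log2, SE, adjusted p = 0.0122) in Molt-4. ZNRD1, a small polymerase I subunit, averaged 50.0 ± 1.02 FPKM in treated Jurkat cells and 91.2 ± 6.87 FPKM in untreated Jurkat cells and 45.3 ± 1.75 FPKM in treated Molt-4 cells and 69.9 ± 2.94 FPKM in untreated Molt-4 cells, with log2 changes of -0.85 in Jurkat and -0.61 in Molt-4 (adjusted p = 2.73e-07 and 3.53e-06). TWISTNB, a stalk subunit of polymerase I, went the other way in Jurkat, where it averaged 19.0 ± 0.866 FPKM in treated Jurkat cells and 15.7 ± 1.67 FPKM in untreated Jurkat cells and rose by 0.26 ± 0.10 (log2, SE, adjusted p = 0.0351), and its Molt-4 change of -0.17 ± 0.10 (log2, SE, adjusted p = 0.140) did not pass. Of 6 polymerase I factors 1 rose and 2 fell in Jurkat (16.7% and 33.3%), and 0 rose and 2 fell in Molt-4 (0% and 33.3%), beside those same shares of all genes. TAF1A, a subunit of the promoter selectivity factor, fell by 0.60 in Jurkat and by 0.72 in Molt-4 on the log2 scale (adjusted p = 4.81e-05 and 8.46e-06). UBTF, which binds the ribosomal DNA, fell by 0.43 in Jurkat (adjusted p = 0.00215), while its Molt-4 change was -0.20 (adjusted p = 0.0899).

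The 5 subunits shared by all 3 polymerases all fell in Molt-4, and 2 of them, POLR2F and POLR2H, in Jurkat. The falls were thus 100% in Molt-4 and 40.0% in Jurkat, beside 24.6% and 25.4% of all genes. POLR2F had 185, 179.7 and 180.0 FPKM in treated Jurkat libraries, against 266, 292 and 201 FPKM in untreated Jurkat libraries. The Molt-4 values of POLR2F were 116, 142 and 135 FPKM in treated Molt-4 libraries, against 204, 208 and 227 FPKM in untreated Molt-4 libraries. The treated libraries were below the untreated ones in both lines, with untreated Jurkat replicate 3 closest to them. Its changes were -0.46 ± 0.12 (log2, SE, adjusted p = 0.00479) in Jurkat, -0.62 without that library, and -0.70 ± 0.12 (log2, SE, adjusted p = 2.34e-04) in Molt-4. POLR2H fell by 0.54 in Jurkat (adjusted p = 1.14e-05) and by 0.17 in Molt-4 (adjusted p = 0.0317). The Molt-4 groups of POLR2H overlapped, at 88.5, 104 and 97.7 FPKM in treated Molt-4 libraries, against 103, 111 and 111 FPKM in untreated Molt-4 libraries. POLR2E, the most abundant member in Molt-4, averaged 269 ± 10.2 FPKM in treated Molt-4 cells and 335 ± 16.5 FPKM in untreated Molt-4 cells, a change of -0.31 ± 0.071 (log2, SE, adjusted p = 0.00238). In Jurkat its groups overlapped, with a change of 0.026 ± 0.071 (log2, SE, adjusted p = 0.793). With quantile normalization the Jurkat change of POLR2E passed, at 0.15 (adjusted p = 0.0349). POLR2L and POLR2K fell in Molt-4 by 0.36 and 0.15 (adjusted p = 0.0122 and 0.0278). In Jurkat POLR2K passed as higher with quantile normalization, at 0.18 (adjusted p = 0.0113).

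The Molt-4 calls of 3 of these 5 subunits were lost when 1 library was left out. That of POLR2H was lost when any 1 of treated Molt-4 replicates 1 or 3 or untreated Molt-4 replicates 2 or 3 was left out (adjusted p 0.0582 to 0.148, with 0.00956 to 0.148 over all its alternatives), and after quantile normalization (adjusted p = 0.144) or with only the groups compared (adjusted p = 0.0512). The POLR2K call was lost when any 1 of treated Molt-4 replicates 1, 2 or 3 or untreated Molt-4 replicates 2 or 3 was left out (adjusted p 0.0569 to 0.119, with 0.00560 to 0.326 over all its alternatives), and after quantile normalization (adjusted p = 0.326). For POLR2L it was lost when treated Molt-4 replicate 1 was left out (adjusted p 0.0583, with 0.00100 to 0.0583 over all its alternatives).

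Among the 11 genes of polymerase II alone, 3 rose and 4 fell in Jurkat, and 0 rose and 6 fell in Molt-4. Those shares were 27.3% and 36.4% in Jurkat, beside 30.9% and 25.4% of all genes. In Molt-4 they were 0% and 54.5%, beside 35.4% and 24.6%. POLR2A, the largest subunit with the repeat tail that is phosphorylated during transcription, had 119, 155 and 139.6 FPKM in treated Jurkat libraries, against 127, 119.6 and 104 FPKM in untreated Jurkat libraries. The POLR2A groups overlapped, and the change of 0.23 ± 0.15 (log2, SE, adjusted p = 0.216) did not pass, nor did that of -0.18 ± 0.15 (log2, SE, adjusted p = 0.337) in Molt-4. POLR2B, the second largest subunit, changed by -0.0091 ± 0.085 (log2, SE, adjusted p = 0.950) in Jurkat and -0.24 ± 0.085 (log2, SE, adjusted p = 0.0281) in Molt-4. Its Molt-4 call was lost when any 1 of treated Molt-4 replicate 1 or untreated Molt-4 replicates 2 or 3 was left out (adjusted p 0.0584 to 0.131, with 0.0106 to 0.131 over all its alternatives), and after quantile normalization (adjusted p = 0.0961). POLR2G, of the stalk that binds the emerging RNA, fell in both lines, with 103 ± 1.46 FPKM in treated Jurkat cells and 124 ± 3.23 FPKM in untreated Jurkat cells, and 88.2 ± 4.10 FPKM in treated Molt-4 cells and 115 ± 3.24 FPKM in untreated Molt-4 cells. Its changes were -0.26 ± 0.047 (log2, SE, adjusted p = 4.51e-04) in Jurkat and -0.38 ± 0.047 (log2, SE, adjusted p = 2.49e-05) in Molt-4. POLR2D, its stalk partner, fell by 0.28 in Jurkat and 0.23 in Molt-4 (adjusted p = 0.00123 and 0.00416).

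POLR2I, a small subunit at the downstream end of the enzyme, showed the lowest adjusted p among the members in Jurkat. It had 81.5, 78.2 and 86.8 FPKM in treated Jurkat libraries, against 139, 148 and 131 FPKM in untreated Jurkat libraries. Molt-4 values of POLR2I were 83.7, 83.3 and 82.1 FPKM in treated Molt-4 libraries, against 93.8, 95.7 and 99.0 FPKM in untreated Molt-4 libraries. The groups were apart in both lines, by more in Jurkat. Its changes were -0.75 ± 0.056 (log2, SE, adjusted p = 3.31e-07) in Jurkat and -0.21 ± 0.056 (log2, SE, adjusted p = 0.00626) in Molt-4, with a difference of responses of 0.55 ± 0.079 (log2, SE, adjusted p = 2.55e-04). Opposite-strand exons of TBCB cover 39.5% of the annotated exon bases of POLR2I, and it is not given whether counting used strand, so reads of the pair may not have been told apart. Opposite-strand exons of a further gene, AD001527.2, cover 49.8% of those bases, and that gene was not analysed here. TBCB averaged 214 ± 1.78 FPKM in treated and 204 ± 13.4 FPKM in untreated Jurkat cells, and 134 ± 5.67 FPKM in treated and 121 ± 7.85 FPKM in untreated Molt-4 cells. POLR2C, of the assembly pair of polymerase II, fell by 0.25 in Jurkat and 0.28 in Molt-4 (adjusted p = 0.0316 and 0.0166). Its Jurkat call was lost when any 1 of treated Jurkat replicates 1 or 2 or untreated Jurkat replicates 1 or 2 was left out (adjusted p 0.0561 to 0.141, with 0.00217 to 0.196 over all its alternatives), and after quantile normalization (adjusted p = 0.196), with totals made equal without 7SL RNA (adjusted p = 0.128) or with only the groups compared (adjusted p = 0.0853), and its Molt-4 call when any 1 of treated Molt-4 replicate 3 or untreated Molt-4 replicate 1 was left out (adjusted p 0.0532 to 0.0704, with 0.00304 to 0.0704 over all its alternatives).

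POLR2J, which pairs with POLR2C, was called in opposite directions in the 2 lines. It had 111, 108 and 116 FPKM in treated Jurkat libraries, against 95.1, 103 and 93.6 FPKM in untreated Jurkat libraries. In Molt-4 it had 118, 113 and 118 FPKM in treated Molt-4 libraries, against 137, 131 and 137 FPKM in untreated Molt-4 libraries. Treated libraries were above all untreated ones in Jurkat and below all of them in Molt-4. Its changes were 0.20 ± 0.051 (log2, SE, adjusted p = 0.00511) in Jurkat and -0.21 ± 0.051 (log2, SE, adjusted p = 0.00296) in Molt-4, and they differed by -0.41 ± 0.072 (log2, SE, adjusted p = 9.46e-04). Of its near-identical copies, POLR2J2 had 11.0, 10.7 and 10.3 FPKM in treated Jurkat libraries, against 3.78, 4.13 and 6.39 FPKM in untreated Jurkat libraries, a change of 1.04 ± 0.17 (log2, SE, adjusted p = 2.80e-04), or 1.24 without untreated Jurkat replicate 3. In Molt-4 the POLR2J2 groups overlapped, with a change of 0.26 ± 0.17 (log2, SE, adjusted p = 0.211). POLR2J3 and POLR2J4 changed by 0.30 ± 0.12 (log2, SE, adjusted p = 0.0511) and 0.58 ± 0.26 (log2, SE, adjusted p = 0.0771) in Jurkat, and without untreated replicate 3 POLR2J4 changed by 0.96 (adjusted p = 5.48e-04). The POLR2J3 change passed with an FPKM minimum of 5 (adjusted p = 0.0474), equal totals without 7SL RNA (0.38, adjusted p = 0.0103) and quantile normalization (0.45, adjusted p = 0.00425). It also passed without untreated Jurkat replicate 2 (0.40, adjusted p = 0.0231) and without untreated Molt-4 replicate 2 or 3 (0.30 each, adjusted p = 0.0343 and 0.0312). Of the stretches of 50 bases in the annotated transcripts, 97.8% of POLR2J2, 66.8% of POLR2J3, 44.0% of POLR2J4 and 46.0% of POLR2J also occur in another gene, so the levels of this family are uncertain. POLR2M, which associates with polymerase II and shares 40.0% of its stretches with another gene, rose in Jurkat by 0.39 (adjusted p = 0.00363).

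**Figure D3:**
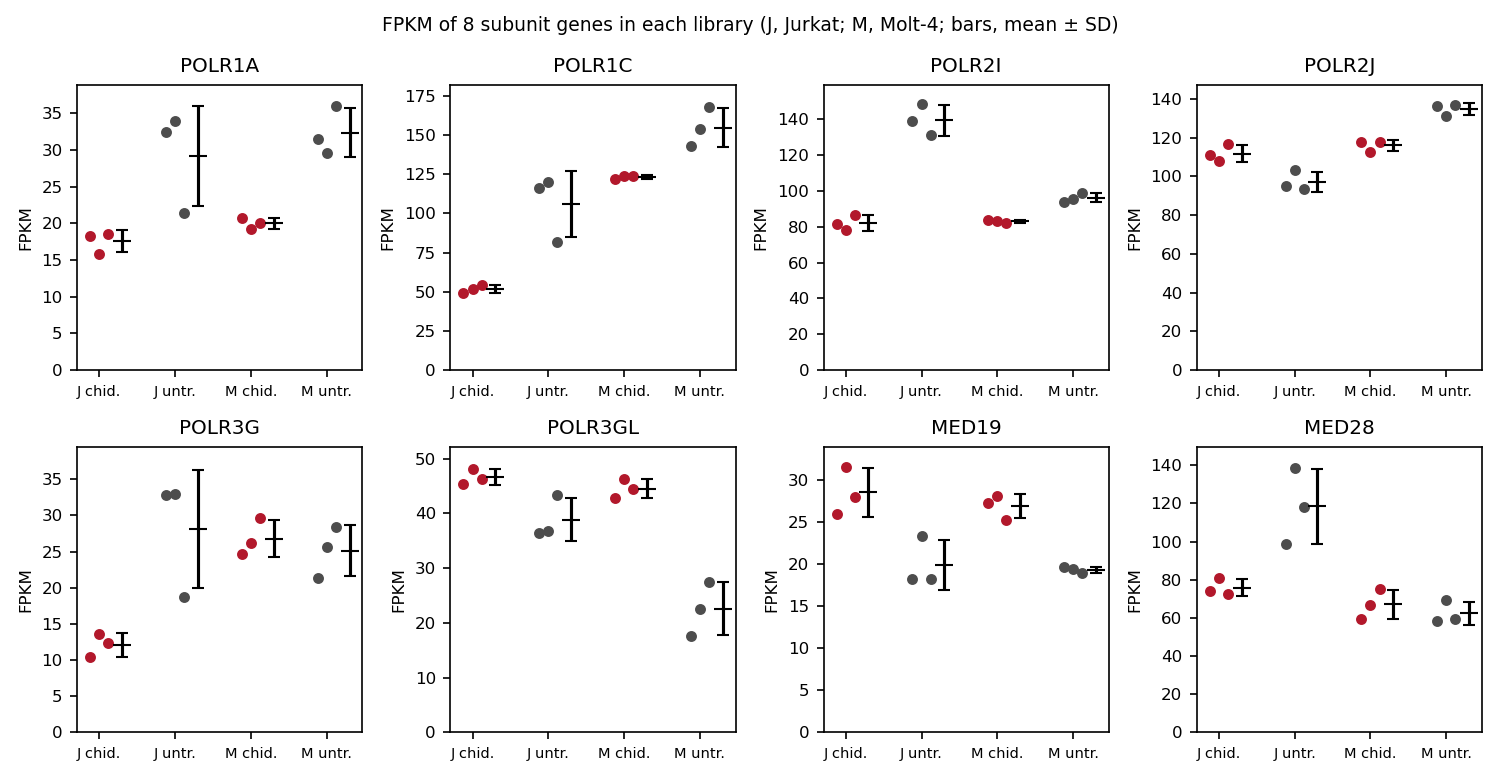
FPKM of 8 members per library (points) and group means (horizontal marks, with SD bars, n = 3), with treated groups left of untreated ones in each line and a linear axis from 0. POLR3G is at 10.4 to 13.6 FPKM in treated Jurkat libraries and at 18.7 to 32.9 FPKM in untreated ones, while its groups overlap in Molt-4.

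Among the POLR3 genes, POLR3E and POLR3K fell in both lines. POLR3E, of the pair of subunits that acts in initiation and termination, had 37.8, 33.7 and 34.9 FPKM in treated Jurkat libraries, against 54.0, 55.5 and 49.5 FPKM in untreated Jurkat libraries. Its Molt-4 values were 39.2, 39.0 and 39.6 FPKM in treated Molt-4 libraries, against 58.1, 63.8 and 63.8 FPKM in untreated Molt-4 libraries. No treated library reached an untreated one in either line, and the changes were -0.57 ± 0.063 (log2, SE, adjusted p = 1.05e-05) in Jurkat, -0.61 without untreated replicate 3, and -0.64 ± 0.063 (log2, SE, adjusted p = 3.11e-06) in Molt-4. POLR3K, a small subunit that acts in RNA cleavage and termination, averaged 32.6 ± 0.940 FPKM in treated Jurkat cells and 57.8 ± 10.9 FPKM in untreated Jurkat cells, and 51.6 ± 1.03 FPKM in treated Molt-4 cells and 62.8 ± 1.36 FPKM in untreated Molt-4 cells. Its changes were -0.79 ± 0.11 (log2, SE, adjusted p = 5.23e-05) in Jurkat, -0.95 without that library, and -0.28 ± 0.11 (log2, SE, adjusted p = 0.0386) in Molt-4. In Molt-4 the POLR3K call was lost when any 1 of treated Molt-4 replicates 1, 2 or 3 or untreated Molt-4 replicates 1, 2 or 3 was left out (adjusted p 0.0658 to 0.0962, with 1.33e-04 to 0.0962 over all its alternatives), and with no filter on low values (adjusted p = 0.0567) or after quantile normalization (adjusted p = 0.0772).

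POLR3D, POLR3C, POLR3F and POLR3A were called lower in Molt-4 and not in Jurkat. POLR3D, which pairs with POLR3E, averaged 24.1 ± 1.16 FPKM in treated Molt-4 cells and 29.9 ± 1.08 FPKM in untreated Molt-4 cells, with a change of -0.30 ± 0.060 (log2, SE, adjusted p = 0.00110). POLR3C, of the trimer that opens the promoter, changed by -0.27 ± 0.066 (log2, SE, adjusted p = 0.00329). POLR3F, of the same trimer, changed by -0.39 ± 0.14 (log2, SE, adjusted p = 0.0320) and POLR3A, the largest catalytic subunit, by -0.24 ± 0.077 (log2, SE, adjusted p = 0.0189). The POLR3F call was lost when any 1 of treated Molt-4 replicates 1 or 2 or untreated Molt-4 replicate 1 was left out (adjusted p 0.0999 to 0.143, with 0.00267 to 0.143 over all its alternatives), and with only the groups compared (adjusted p = 0.0769), and that of POLR3A when any 1 of treated Molt-4 replicates 2 or 3 or untreated Molt-4 replicates 1 or 3 was left out (adjusted p 0.0531 to 0.0692, with 0.00312 to 0.0692 over all its alternatives). The second catalytic subunit, POLR3B, changed by 0.52 ± 0.17 (log2, SE, adjusted p = 0.0213) in Jurkat and by -0.070 ± 0.17 (log2, SE, adjusted p = 0.747) in Molt-4. Its Jurkat call was lost when any 1 of treated Jurkat replicates 2 or 3 or untreated Jurkat replicate 3 was left out (adjusted p 0.0612 to 0.0851, with 0.0101 to 0.130 over all its alternatives), and after quantile normalization (adjusted p = 0.13). For POLR3A, POLR3C and POLR3F the difference between the responses of the lines did not pass (adjusted p = 0.452, 0.0645 and 0.682), and for POLR3D it was -0.26 ± 0.085 (log2, SE, adjusted p = 0.0343).

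Promoters were examined for CACGTG, the E-box hexamer that MYC binds with MAX, since the title of the series names MYC and several POLR3 genes fell. RefSeq promoter windows of GRCh38.p14, which reach from upstream of the start to shortly after it, matched 41 of the 59 members. The hexamer, which reads alike on both strands, was in 4 of the 41 (9.76%), against 10.0% of the 10270 matched promoters of genes tested. It was in 3 of 7 POLR3 promoters, 1 of 20 Mediator promoters, 0 of 4 POLR1 promoters and 0 of 10 POLR2 promoters. A match is a description of these letters and no evidence of binding. The promoters with a match upstream of the start are shown as stretches of 60 bases, 5′ to 3′ on the gene's strand, with the hexamer in capitals.
MED13L: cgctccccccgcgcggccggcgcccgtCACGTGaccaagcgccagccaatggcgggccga
POLR3A: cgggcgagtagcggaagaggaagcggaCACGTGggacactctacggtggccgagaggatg
POLR3C: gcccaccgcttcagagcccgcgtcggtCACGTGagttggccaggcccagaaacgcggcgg
The hexamer begins at position -52 from the start in MED13L (chr12:116277713-116277772, minus strand), at -35 in POLR3A (chr10:78029518-78029577, minus strand) and at -196 in POLR3C (chr1:145823977-145824036, plus strand). In POLR3E the hexamer spans the start. Of these 4 genes POLR3E fell in both lines, POLR3A and POLR3C fell in Molt-4 and MED13L rose in both. The POLR1 genes that fell in both lines and have a promoter in the table hold no such hexamer in this window.

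POLR3G and POLR3GL are alternative subunits of the trimer, and their ratio was lower with chidamide in both lines, with POLR3G called lower in Jurkat and POLR3GL called higher in Molt-4. POLR3G, the form known from stem and tumour cells, had 10.4, 13.6 and 12.4 FPKM in treated Jurkat libraries, against 32.8, 32.9 and 18.7 FPKM in untreated Jurkat libraries. In Molt-4 it had 24.6, 26.1 and 29.6 FPKM in treated Molt-4 libraries, against 21.3, 25.6 and 28.4 FPKM in untreated Molt-4 libraries. The Jurkat groups did not overlap, untreated replicate 3 lay between, and the Molt-4 groups overlapped. Its changes were -1.11 ± 0.19 (log2, SE, adjusted p = 3.21e-04) in Jurkat, -1.38 without that library, and 0.095 ± 0.19 (log2, SE, adjusted p = 0.689) in Molt-4. The responses differed by 1.21 ± 0.27 (log2, SE, adjusted p = 0.00468), or by 1.47 without that library. POLR3GL, the form of most differentiated tissues, had 45.4, 48.1 and 46.3 FPKM in treated Jurkat libraries, against 36.4, 36.8 and 43.3 FPKM in untreated Jurkat libraries. In Molt-4 it had 42.8, 46.2 and 44.5 FPKM in treated Molt-4 libraries, against 17.7, 22.6 and 27.4 FPKM in untreated Molt-4 libraries. Treated libraries were above untreated ones in both lines, by more in Molt-4. Its change was 0.26 ± 0.12 (log2, SE, adjusted p = 0.0897) in Jurkat, which did not pass, and 0.97 ± 0.12 (log2, SE, adjusted p = 2.63e-05) in Molt-4. The Jurkat change passed in 6 alternatives. These were equal totals without 7SL RNA (0.34, adjusted p = 0.0210), quantile normalization (0.34, adjusted p = 0.0222) and a fit of only the groups compared (0.26, adjusted p = 0.0302), and leaving out untreated Jurkat replicate 3 (0.34, adjusted p = 0.0425), untreated Molt-4 replicate 1 or untreated Molt-4 replicate 3 (0.26 each, adjusted p = 0.0226 and 0.0324).

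The ratio of POLR3G to POLR3GL was 0.229, 0.283 and 0.267 in treated Jurkat libraries and 0.901, 0.896 and 0.431 in untreated ones. In Molt-4 it was 0.575, 0.565 and 0.666 in treated libraries and 1.21, 1.14 and 1.04 in untreated ones. Every treated library had a lower ratio than every untreated library of its line. The log2 ratio differed by -1.44 in Jurkat and -0.90 in Molt-4, each with p = 0.1 in an exact two-sided permutation test, the smallest p that 3 against 3 allow. Over both lines, with libraries permuted within lines in 400 arrangements, the difference was -1.17 with an exact permutation p of 0.005, the smallest possible, and 0.015 after adjustment over 3 pairs of paralogues. POLR3GL shares 10.9% of its stretches of 50 bases with other genes.

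Factors that act with or on polymerase III were counted as a list of 16 genes. In Jurkat 2 rose and 9 fell (12.5% and 56.2%, beside 30.9% and 25.4% of all genes), and in Molt-4 2 rose and 8 fell (12.5% and 50.0%, beside 35.4% and 24.6%), with median log2 changes of -0.24 and -0.20 beside 0.04 and 0.08 for all genes. GTF3C6, a subunit of TFIIIC, which recognises the promoters inside transfer RNA genes, averaged 33.7 ± 0.745 FPKM in treated Jurkat cells and 101 ± 20.5 FPKM in untreated Jurkat cells, and 60.9 ± 4.68 FPKM in treated Molt-4 cells and 152 ± 13.1 FPKM in untreated Molt-4 cells. Its changes were -1.53 ± 0.12 (log2, SE, adjusted p = 7.54e-07) in Jurkat and -1.30 ± 0.12 (log2, SE, adjusted p = 2.38e-06) in Molt-4. BDP1 of TFIIIB, which recruits the enzyme, fell by 0.40 in Jurkat and 0.60 in Molt-4 (adjusted p = 0.00129 and 4.53e-05). GTF3A, which binds the 5S gene, fell by 0.36 in Jurkat and 0.50 in Molt-4 (adjusted p = 4.19e-04 and 2.60e-05). MAF1, a repressor of polymerase III that the list includes, changed by -0.30 in Jurkat and -0.47 in Molt-4 (limma, adjusted p = 3.0e-04 and 7.76e-06). In the other direction SNAPC2, a subunit of the factor for small nuclear RNA genes, rose by 0.35 in Jurkat and 0.69 in Molt-4 (adjusted p = 4.05e-04 and 1.52e-06).

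Log2 changes of the Mediator genes ran from -0.62 to 0.50 in Jurkat and from -0.35 to 0.46 in Molt-4, beside -1.11 to 1.04 and -0.73 to 0.97 for all 59 members. The 9 middle-module genes had 2 rises and 2 falls in Jurkat (22.2% each, beside 30.9% and 25.4% of all genes). In Molt-4 they had 2 rises and 3 falls (22.2% and 33.3%, beside 35.4% and 24.6%). MED19, a middle subunit, rose in both lines. It had 26.0, 31.6 and 28.0 FPKM in treated Jurkat libraries, against 18.3, 23.4 and 18.2 FPKM in untreated Jurkat libraries. Molt-4 values of MED19 were 27.3, 28.1 and 25.3 FPKM in treated Molt-4 libraries, against 19.6, 19.4 and 18.9 FPKM in untreated Molt-4 libraries. Treated libraries were above all untreated ones in each line, and the changes were 0.50 ± 0.10 (log2, SE, adjusted p = 9.54e-04) in Jurkat, 0.44 without untreated replicate 3, and 0.46 ± 0.10 (log2, SE, adjusted p = 0.00167) in Molt-4. MED1, the subunit that nuclear receptors contact, fell in both lines. It averaged 29.5 ± 0.823 FPKM in treated Jurkat cells and 36.0 ± 3.47 FPKM in untreated Jurkat cells, and 32.4 ± 1.08 FPKM in treated Molt-4 cells and 41.5 ± 0.236 FPKM in untreated Molt-4 cells, with changes of -0.28 ± 0.068 (log2, SE, adjusted p = 0.00407) in Jurkat, -0.35 without that library, and -0.35 ± 0.068 (log2, SE, adjusted p = 7.69e-04) in Molt-4.

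MED4, a middle subunit, was called in Jurkat and not in Molt-4. It had 62.0, 59.5 and 57.4 FPKM in treated Jurkat libraries, against 44.6, 43.4 and 41.9 FPKM in untreated Jurkat libraries. In Molt-4, with 37.5, 43.4 and 39.1 FPKM in treated Molt-4 libraries, against 44.2, 43.3 and 44.2 FPKM in untreated Molt-4 libraries, the change was -0.13 ± 0.060 (log2, SE, adjusted p = 0.0746). The Jurkat groups did not overlap, with a change of 0.45 ± 0.060 (log2, SE, adjusted p = 4.58e-05), and the responses differed by -0.59 ± 0.085 (log2, SE, adjusted p = 2.67e-04). MED21 was called in Molt-4, with 39.4 ± 2.46 FPKM in treated Molt-4 cells and 30.6 ± 4.25 FPKM in untreated Molt-4 cells and a change of 0.36 ± 0.10 (log2, SE, adjusted p = 0.00702), while its Jurkat change was -0.051 ± 0.10 (log2, SE, adjusted p = 0.693). Of the stretches of 50 bases of MED26 44.4% also occur in another gene, and same-strand exons of AC008764.1 cover 45.6% of its exon bases. MED26, which exchanges with the kinase module and recruits elongation factors, changed by -0.21 ± 0.079 (log2, SE, adjusted p = 0.0389) in Molt-4. This call was lost when any 1 of treated Jurkat replicate 3, treated Molt-4 replicates 2 or 3 or untreated Molt-4 replicates 1 or 2 was left out (adjusted p 0.0501 to 0.114, with 5.67e-04 to 0.114 over all its alternatives), and with totals made equal without 7SL RNA (adjusted p = 0.0517) or with only the groups compared (adjusted p = 0.053). MED9 fell by 0.22 in Jurkat and 0.23 in Molt-4 (adjusted p = 0.0405 and 0.0364). Its Jurkat call was lost when any 1 of treated Jurkat replicates 1 or 2 or untreated Jurkat replicates 1 or 2 was left out (adjusted p 0.0646 to 0.153, with 0.0187 to 0.173 over all its alternatives), and with totals made equal without 7SL RNA (adjusted p = 0.173) or with only the groups compared (adjusted p = 0.0805), and its Molt-4 call when any 1 of treated Molt-4 replicates 1 or 3 or untreated Molt-4 replicates 1 or 2 was left out (adjusted p 0.0512 to 0.125, with 0.00316 to 0.125 over all its alternatives).

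In the head module, which contacts polymerase II, 2 of 7 genes rose and 1 fell in Jurkat, and 0 rose and 1 fell in Molt-4. Those shares were 28.6% and 14.3% in Jurkat, beside 30.9% and 25.4% of all genes. In Molt-4 they were 0% and 14.3%, beside 35.4% and 24.6%. MED18 averaged 23.6 ± 1.36 FPKM in treated Jurkat cells and 17.8 ± 1.90 FPKM in untreated Jurkat cells, a change of 0.39 ± 0.10 (log2, SE, adjusted p = 0.00716), and its partner MED20 36.5 ± 3.15 FPKM in treated Jurkat cells and 28.4 ± 2.48 FPKM in untreated Jurkat cells, a change of 0.35 ± 0.12 (log2, SE, adjusted p = 0.0272). The MED20 call was lost when any 1 of treated Jurkat replicates 1 or 2 or untreated Jurkat replicate 3 was left out (adjusted p 0.0525 to 0.104, with 0.00615 to 0.104 over all its alternatives). MED22 fell in both lines, by 0.45 in Jurkat and 0.25 in Molt-4 (adjusted p = 0.00142 and 0.0359). Its Molt-4 call was lost when any 1 of treated Molt-4 replicate 2 or untreated Molt-4 replicates 2 or 3 was left out (adjusted p 0.102 to 0.160, with 0.00786 to 0.160 over all its alternatives), and with only the groups compared (adjusted p = 0.0725). MED17, a scaffold of the head, changed by -0.20 ± 0.10 (log2, SE, adjusted p = 0.104) in Jurkat and passed without untreated replicate 3, at -0.32 (adjusted p = 0.00341). Of its stretches of 50 bases 46.0% also occur in another gene. MED14, the backbone that joins the modules, changed by 0.12 ± 0.10 (log2, SE, adjusted p = 0.342) in Jurkat and 0.044 ± 0.10 (log2, SE, adjusted p = 0.730) in Molt-4, with overlapping groups.

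Of the 7 genes of the tail and its metazoan additions, 1 rose and 2 fell in Jurkat and 0 rose and 1 fell in Molt-4. Those shares were 14.3% and 28.6% in Jurkat, beside 30.9% and 25.4% of all genes. In Molt-4 they were 0% and 14.3%, beside 35.4% and 24.6%. MED28, the most abundant Mediator message in each group, had 74.1, 81.2 and 72.6 FPKM in treated Jurkat libraries, against 99.0, 138 and 118 FPKM in untreated Jurkat libraries. Molt-4 values of MED28 were 59.7, 66.8 and 75.0 FPKM in treated Molt-4 libraries, against 58.3, 69.5 and 59.4 FPKM in untreated Molt-4 libraries. The Jurkat groups were apart and the Molt-4 groups overlapped, with changes of -0.62 ± 0.12 (log2, SE, adjusted p = 6.93e-04) in Jurkat and 0.10 ± 0.12 (log2, SE, adjusted p = 0.476) in Molt-4 and a difference of responses of 0.73 ± 0.17 (log2, SE, adjusted p = 0.00575). Opposite-strand exons of FAM184B cover 32.4% of the MED28 exon bases, but FAM184B averaged at most 0.0433 FPKM in any group. MED16, a tail subunit, fell in both lines, with 28.0 ± 0.572 FPKM in treated Jurkat cells and 36.4 ± 1.82 FPKM in untreated Jurkat cells, and 22.4 ± 2.02 FPKM in treated Molt-4 cells and 27.7 ± 1.75 FPKM in untreated Molt-4 cells. Its changes were -0.37 ± 0.073 (log2, SE, adjusted p = 0.00101) in Jurkat and -0.30 ± 0.073 (log2, SE, adjusted p = 0.00406) in Molt-4. MED29 averaged 20.3 ± 1.18 FPKM in treated Jurkat cells and 16.4 ± 0.679 FPKM in untreated Jurkat cells, a change of 0.29 ± 0.064 (log2, SE, adjusted p = 0.00225), against -0.14 ± 0.064 (log2, SE, adjusted p = 0.0801) in Molt-4.

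The kinase module holds MED12 or MED12L and MED13 or MED13L. MED13L averaged 21.1 ± 1.54 FPKM in treated Jurkat cells and 17.3 ± 1.86 FPKM in untreated Jurkat cells, and 25.5 ± 1.98 FPKM in treated Molt-4 cells and 21.4 ± 1.04 FPKM in untreated Molt-4 cells, with changes of 0.27 ± 0.090 (log2, SE, adjusted p = 0.0204) in Jurkat and 0.24 ± 0.090 (log2, SE, adjusted p = 0.0359) in Molt-4. In Jurkat its call was lost when any 1 of treated Jurkat replicates 1 or 2 or untreated Jurkat replicate 2 was left out (adjusted p 0.0592 to 0.0874, with 0.00535 to 0.0874 over all its alternatives), and with only the groups compared (adjusted p = 0.0562). In Molt-4 its call was lost when any 1 of treated Molt-4 replicates 1 or 2 or untreated Molt-4 replicates 1 or 3 was left out (adjusted p 0.0825 to 0.130, with 0.0193 to 0.130 over all its alternatives), and with median-of-ratios scaling (adjusted p = 0.0797), after quantile normalization (adjusted p = 0.0507) or with totals made equal without 7SL RNA (adjusted p = 0.0521). MED12, MED12L and MED13 did not pass in either line, MED12L with changes of 0.41 ± 0.19 (log2, SE, adjusted p = 0.0897) in Jurkat and 0.25 ± 0.19 (log2, SE, adjusted p = 0.284) in Molt-4. In Jurkat MED12L passed with equal totals without 7SL RNA, at 0.49 (adjusted p = 0.0414). It also passed without treated Jurkat replicate 3, at 0.58 (adjusted p = 0.0268), and without untreated Molt-4 replicate 1, at 0.41 (adjusted p = 0.0191). The log2 ratio of MED13L to MED13 was 0.28 higher with chidamide over both lines (exact permutation p = 0.02, adjusted p = 0.03) and that of MED12L to MED12 0.50 higher (exact permutation p = 0.07, adjusted p = 0.07). Leaving out treated Jurkat replicate 1, untreated Jurkat replicate 1 or 2 or treated Molt-4 replicate 1 ended the MED13L call (adjusted p = 0.06). For MED12L, leaving out treated Jurkat replicate 3, treated Molt-4 replicate 2 or untreated Molt-4 replicate 3 made a call (adjusted p = 0.035 to 0.045). Of the partners of this module, CCNC, its cyclin, rose by 0.32 in Jurkat and 0.34 in Molt-4 and CDK19, one of its kinases, by 0.34 in Jurkat and 0.52 in Molt-4 (adjusted p = 0.00504 and 0.00361 for CCNC, 0.0484 and 0.00560 for CDK19), while CDK8 changed by 0.17 in Jurkat and -0.074 in Molt-4 (adjusted p = 0.0577 and 0.379).

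Set side by side, 2 members rose in both lines (MED13L and MED19) and 17 fell in both, which is 3.39% and 28.8% of the 59, where 21.7% of all genes rose and 16.2% fell in both. Among the 17 were the polymerase I genes POLR1A, POLR1B, POLR1C and POLR1E, the POLR2 genes C, D, F, G, H and I, POLR3E and POLR3K, and MED1, MED9, MED16 and MED22. POLR2J was the 1 member with opposite calls in the fit reported here. MED4 and MED29, called higher in Jurkat in all alternatives, were also called lower in Molt-4 with median-of-ratios scaling, at -0.18 and -0.19 (adjusted p = 0.0218 and 0.0240). MED29 was so with quantile normalization as well, at -0.24 (adjusted p = 0.00766), and MED4 without treated Molt-4 replicate 2, at -0.19 (adjusted p = 0.0171). With quantile normalization POLR2E also had opposite calls, higher in Jurkat at 0.15 (adjusted p = 0.0349) and lower in Molt-4. The 18 members called in neither line were POLR2A, POLR2J3, POLR2J4, MED6, MED7, MED8, MED10, MED11, MED12, MED12L, MED13, MED14, MED15, MED17, MED23, MED27, MED30 and MED31. Without untreated Jurkat replicate 3 the Jurkat log2 changes were -0.63 for POLR1E, -0.31 for POLR2D, -0.28 for POLR2G, -0.58 for POLR2H, -0.80 for POLR2I, -0.27 for MED9 and 0.35 for MED13L, and MED15 then passed at 0.20 (adjusted p = 0.0488). In that fit they were -0.35 for POLR2C, 0.17 for POLR2J, 0.41 for POLR2M, 0.39 for POLR3B and 0.43 for MED4. For MED16, MED18, MED20, MED22, MED28 and MED29 they were -0.36, 0.32, 0.28, -0.41, -0.62 and 0.27. Across the 59 members the changes in the 2 lines, which share no library, correlated with r = 0.519, beside 0.638 across all 13840 genes. Genes are not independent replicates, so this is a description.

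**Figure D4:**
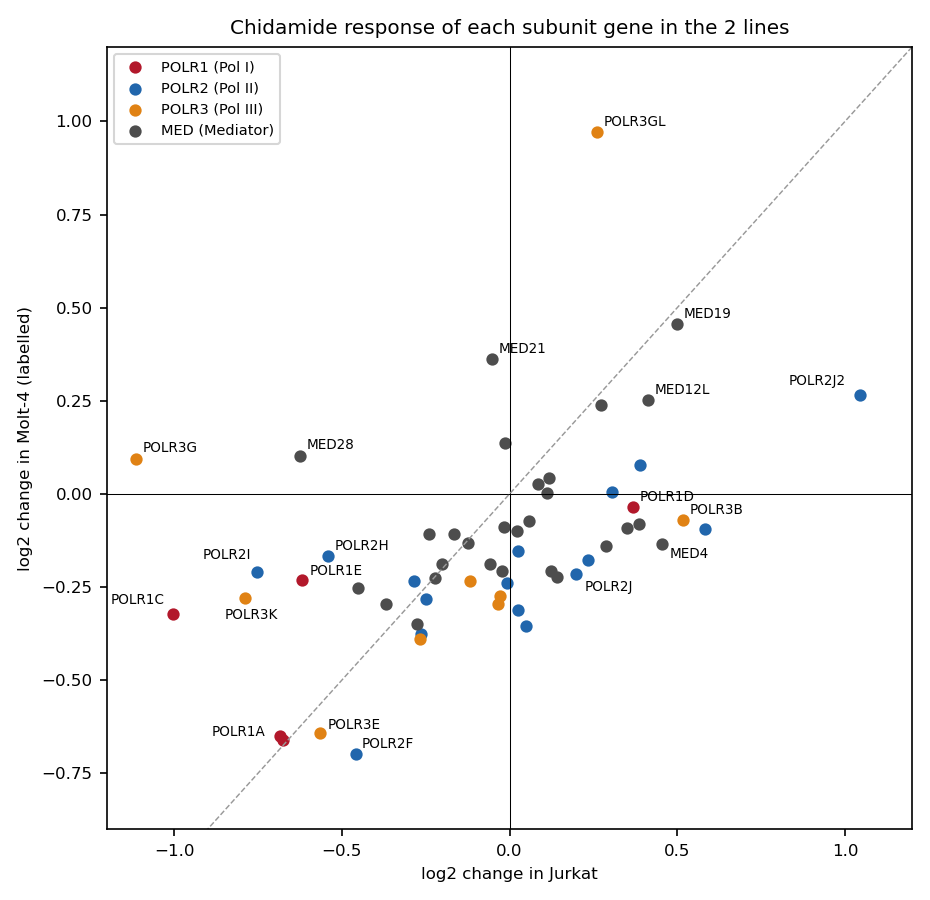
Log2 change with chidamide in Molt-4 (vertical axis) against Jurkat (horizontal axis) for members, coloured by class, on log2(FPKM + 1), with a dashed line where both changes are equal. POLR3G lies far left at -1.11 in Jurkat and 0.095 in Molt-4, and POLR3GL at the top at 0.97 in Molt-4.

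The difference of the responses, Molt-4 minus Jurkat, was tested for each member. It was higher for 9 members and lower for 9, 15.3% each, where 19.8% and 12.1% of all genes were. The lower count was 18 after quantile normalization and 14 when totals were made equal without 7SL RNA, where the higher count was 8 in each. Of all genes 19.3% were lower with quantile normalization and 15.9% with those equal totals, and 16.4% were higher in each. Quantile normalization also moved the median of all genes in this comparison, from 0.04 to -0.07. Without untreated Jurkat replicate 3 both counts were 8, where 21.1% of all genes were higher and 14.6% lower. Higher were POLR1C, POLR1E, POLR2H, POLR2I, POLR3G, POLR3GL, POLR3K, MED21 and MED28, and lower were POLR1D, POLR2E, POLR2J, POLR2J2, POLR3D, MED4, MED18, MED26 and MED29. For POLR2H the difference was 0.37 ± 0.086 (log2, SE, adjusted p = 0.00588). Of the 18 calls 11 held in all alternatives.

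The other 7 calls of a difference between the responses were POLR2E, POLR2J2, POLR3D, POLR3K, MED18, MED21 and MED26. For POLR2E it was lost when any 1 of treated Jurkat replicate 3, treated Molt-4 replicate 2 or untreated Molt-4 replicates 1 or 3 was left out (adjusted p 0.0501 to 0.0610, with 0.00431 to 0.0610 over all its alternatives). That of POLR3K was lost when any 1 of treated Jurkat replicate 2 or untreated Jurkat replicate 1 was left out (adjusted p 0.0509 to 0.0526, with 1.61e-05 to 0.0526 over all its alternatives). For POLR2J2 the call was lost when any 1 of treated Jurkat replicates 1 or 2, untreated Jurkat replicates 1 or 2, treated Molt-4 replicates 1 or 2 or untreated Molt-4 replicates 1 or 3 was left out (adjusted p 0.0544 to 0.0750, with 0.00328 to 0.0750 over all its alternatives), and with pseudocount 0.1 (adjusted p = 0.0557) or with no filter on low values (adjusted p = 0.0518). POLR3D lost its call when any 1 of treated Jurkat replicates 1, 2 or 3, untreated Jurkat replicate 2, treated Molt-4 replicates 2 or 3 or untreated Molt-4 replicates 1 or 3 was left out (adjusted p 0.0539 to 0.0854, with 0.0134 to 0.0854 over all its alternatives). MED18 lost its call when any 1 of treated Jurkat replicates 2 or 3, untreated Jurkat replicates 1 or 3, treated Molt-4 replicate 2 or untreated Molt-4 replicates 1 or 2 was left out (adjusted p 0.0521 to 0.0744, with 0.00760 to 0.0744 over all its alternatives). The MED21 call was lost when any 1 of treated Jurkat replicates 1, 2 or 3, untreated Jurkat replicate 3, treated Molt-4 replicates 1 or 2 or untreated Molt-4 replicates 2 or 3 was left out (adjusted p 0.0503 to 0.0911, with 0.0120 to 0.126 over all its alternatives), and with no filter on low values (adjusted p = 0.0561), with median-of-ratios scaling (adjusted p = 0.0501), after quantile normalization (adjusted p = 0.107) or with totals made equal without 7SL RNA (adjusted p = 0.126). The MED26 call was lost when any 1 of treated Jurkat replicates 1, 2 or 3, untreated Jurkat replicates 1 or 3, treated Molt-4 replicates 1, 2 or 3 or untreated Molt-4 replicates 1 or 2 was left out (adjusted p 0.0510 to 0.0878, with 0.0106 to 0.0878 over all its alternatives).

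Untreated Molt-4 and untreated Jurkat differed for 35 members, with 14 higher and 21 lower in Molt-4 (23.7% and 35.6%), where 27.9% and 37.5% of all genes were. The split was 18 and 15 with median-of-ratios scaling, beside 33.7% and 31.4% of all genes. With quantile normalization it was 18 and 19, beside 29.6% and 35.8%. Equal totals without 7SL RNA gave 9 and 25, beside 24.8% and 40.8%. Without untreated Jurkat replicate 3 the split was 13 and 21, beside 28.1% and 36.7%. The libraries of the lines did not overlap for 15 members above and 20 below (28.8% and 37.9% of all genes). POLR2E had 343, 316 and 345 FPKM in untreated Molt-4 libraries, against 174, 186 and 151 FPKM in untreated Jurkat libraries, a difference of 0.98 ± 0.071 (log2, SE, adjusted p = 1.31e-07). POLR1E had 40.8, 40.2 and 40.7 FPKM in untreated Molt-4 libraries, against 23.9, 23.5 and 23.4 FPKM in untreated Jurkat libraries, a difference of 0.76 ± 0.055 (log2, SE, adjusted p = 1.40e-07). Neither gene overlapped between the lines. MED11, a head subunit, had 7.92, 8.10 and 12.2 FPKM in untreated Molt-4 libraries, against 21.5, 22.4 and 24.3 FPKM in untreated Jurkat libraries, a difference of -1.21 ± 0.13 (log2, SE, adjusted p = 4.99e-06). Opposite-strand exons cover 31.1% of the MED11 exon bases, from an antisense gene that was not analysed here.

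POLR2A was lower in untreated Molt-4, with 63.4, 68.0 and 91.3 FPKM in untreated Molt-4 libraries, against 127, 119.6 and 104 FPKM in untreated Jurkat libraries and a difference of -0.66 ± 0.15 (log2, SE, adjusted p = 0.00236), and no overlap. MED12L had 5.65, 10.0 and 10.6 FPKM in untreated Molt-4 libraries, against 22.0, 19.9 and 19.2 FPKM in untreated Jurkat libraries, a difference of -1.17 ± 0.19 (log2, SE, adjusted p = 1.89e-04). Its opposite-strand partner IGSF10 averaged at most 0.143 FPKM in any group. MED28 differed by -0.91 ± 0.12 (log2, SE, adjusted p = 2.51e-05) and POLR3GL by -0.77 ± 0.12 (log2, SE, adjusted p = 1.32e-04), both lower in Molt-4. MED31 averaged 9.07 ± 0.990 FPKM in untreated Molt-4 cells and 17.2 ± 3.51 FPKM in untreated Jurkat cells, a difference of -0.84 ± 0.15 (log2, SE, adjusted p = 3.00e-04). Opposite-strand exons of TXNDC17 cover 70.8% of the MED31 exon bases, and TXNDC17 averaged 112 ± 9.49 FPKM in untreated Molt-4 and 182 ± 17.4 FPKM in untreated Jurkat cells. MED10, POLR3F, POLR1C, POLR2J, MED15 and POLR2M were higher in Molt-4 by 0.58, 0.56, 0.56, 0.47, 0.42 and 0.37, while MED21 was lower by 0.66 on the log2 scale. The adjusted p of these 7 lay between 5.00e-06 and 0.00415. Of the 35 calls 20 held in all alternatives.

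Other genes of the transcription machinery were followed as lists. Of 30 general factors of polymerase II 9 rose and 10 fell in Jurkat, which is 30.0% and 33.3% and near the 30.9% and 25.4% of all genes. In Molt-4 7 rose and 9 fell, which is 23.3% and 30.0% beside 35.4% and 24.6% of all genes. Median log2 changes were -0.06 and -0.08 beside 0.04 and 0.08 for all genes. TAF9, a subunit of TFIID and of the SAGA complex, averaged 36.4 ± 3.73 FPKM in treated Jurkat cells and 74.1 ± 3.04 FPKM in untreated Jurkat cells, and 49.4 ± 1.26 FPKM in treated Molt-4 cells and 100.4 ± 4.21 FPKM in untreated Molt-4 cells. Its changes were -1.01 ± 0.069 (log2, SE, adjusted p = 1.92e-07) in Jurkat and -1.01 ± 0.069 (log2, SE, adjusted p = 1.39e-07) in Molt-4. MNAT1, the assembly factor of the TFIIH kinase, rose by 0.70 in Jurkat and 0.56 in Molt-4 (adjusted p = 1.39e-05 and 8.62e-05), and GTF2A1 of TFIIA by 0.76 in Jurkat and 0.35 in Molt-4 (adjusted p = 8.56e-05 and 0.0153).

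Of 9 pausing and elongation genes 4 rose and 1 fell in Jurkat (44.4% and 11.1%, beside 30.9% and 25.4% of all genes), and 2 rose and 5 fell in Molt-4 (22.2% and 55.6%, beside 35.4% and 24.6%). SUPT4H1, a subunit of DSIF, averaged 224 ± 5.66 FPKM in treated Jurkat cells and 96.1 ± 5.42 FPKM in untreated Jurkat cells, and 189 ± 4.12 FPKM in treated Molt-4 cells and 115 ± 2.78 FPKM in untreated Molt-4 cells. Its changes were 1.22 ± 0.049 (log2, SE, adjusted p = 2.11e-09) in Jurkat and 0.72 ± 0.049 (log2, SE, adjusted p = 1.22e-07) in Molt-4. HEXIM1, an inhibitor of the elongation kinase P-TEFb, averaged 59.7 ± 0.794 FPKM in treated Jurkat cells and 31.1 ± 1.70 FPKM in untreated Jurkat cells, and 58.3 ± 1.16 FPKM in treated Molt-4 cells and 32.7 ± 2.00 FPKM in untreated Molt-4 cells, with log2 changes of 0.92 in Jurkat and 0.81 in Molt-4 (adjusted p = 9.97e-08 and 2.03e-07). NELFCD, of the pausing factor NELF, fell by 0.67 in Jurkat and 0.56 in Molt-4 (adjusted p = 1.25e-04 and 4.26e-04). POLRMT, TFAM and TFB2M, the 3 genes listed for mitochondrial transcription, fell in both lines, as did 16.2% of all genes. POLRMT, the mitochondrial RNA polymerase, averaged 40.3 ± 0.578 FPKM in treated Jurkat cells and 55.8 ± 4.97 FPKM in untreated Jurkat cells, and 44.5 ± 1.87 FPKM in treated Molt-4 cells and 62.2 ± 2.80 FPKM in untreated Molt-4 cells, with changes of -0.46 ± 0.066 (log2, SE, adjusted p = 8.99e-05) in Jurkat and -0.47 ± 0.066 (log2, SE, adjusted p = 6.06e-05) in Molt-4.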

How the data were processed

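RNA was measured by sequencing in 12 libraries, 3 for each of 4 groups, made with a TruSeq RNA kit, per the labels' protocols. The deposited values are FPKM computed by the authors. STAR, HTSeq, DESeq2 and the hg19 build are named per the submitters' processing notes, without versions or order, and whether counting used strand is not given in the sources used here. Sample letters J and M were read as Jurkat and Molt-4. Depth is unknown, since no counts were used, so no counting interval is given. Total FPKM per library was 698435 to 869059.

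Genes that reached 1 FPKM in 3 or more libraries were tested with limma 3.58.1 (R 4.3.3) on log2(FPKM + 1), with 4 group means, 8 residual degrees of freedom, a trended prior and Benjamini-Hochberg adjustment over all genes tested. Ratios of paralogues were tested by exact permutation. The procedure was tested on simulated data. Alternatives covered the pseudocount, filter, scaling, groups in the fit, replicate block and each library left out. The members and lists were chosen with earlier results of these data known, and genes were named by size of change among those called. Promoters were from RefSeq (GRCh38.p14), and shared stretches and exon overlaps from GENCODE v29. TAF1D, TAF4, CDK9, NELFA and NELFE were not analysed here. Counts and sums cover all members, but results of some single genes are not reported here.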

Additional observations from a re-analysis of the deposited data

Results flagged for a closer look

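For 16 of the members named by the size of their changes, the log2 response to chidamide differed between Molt-4 and Jurkat, by a limma test of the difference itself. The values are Molt-4 minus Jurkat. Positive differences were 1.21 for POLR3G, 0.73 for MED28, 0.71 for POLR3GL, 0.68 for POLR1C, 0.55 for POLR2I, 0.51 for POLR3K, 0.41 for MED21 and 0.39 for POLR1E. Negative differences were -0.78 for POLR2J2, -0.59 for MED4, -0.47 for MED18, -0.43 for MED29, -0.41 for POLR2J, -0.40 for POLR1D, -0.34 for POLR2E and -0.33 for MED26. Without untreated Jurkat replicate 3 the difference of POLR3G was 1.47, that of POLR1C 0.85 and that of POLR3K 0.67. The erythroid and epithelial markers that the libraries labelled Molt-4 carry differ between the lines in the same libraries, and their part in these differences was not tested.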

How the results depend on the processing

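Of 166 counts of called members under alternative settings, 159 were within 1.5 times the count reported. The number of members with a lower response in Molt-4 than in Jurkat, 9 as reported, was 18 after quantile normalization, 14 when totals were made equal without 7SL RNA and 5 to 8 with 1 library left out. The share of all genes was 12.1% as reported, 19.3% with quantile normalization and 15.9% with those equal totals. It was 9.36% to 14.6% with 1 library left out. The number higher in untreated Molt-4, 14 as reported, was 9 with equal totals without 7SL RNA, 7 with the replicate block and 12 to 15 with 1 library left out. Of all genes 27.9% were higher as reported, 24.8% with those equal totals and 23.5% with the replicate block. With 1 library left out, 25.5% to 28.1% of all genes were higher. Leaving out 1 library gave 8 to 13 members higher and 17 to 20 lower in Jurkat, beside 27.3% to 32.6% and 23.2% to 25.9% of all genes. In Molt-4 it gave 3 to 4 members higher and 19 to 29 lower, beside 31.0% to 37.3% and 22.0% to 26.5% of all genes. No direction was reversed among the called values under these alternatives.

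Same-numbered libraries did not deviate together (correlations of -0.04 to 0.04). With 3 libraries a group this cannot settle whether the numbers pair the samples, and the labels do not say. With the replicate block, 10 members were higher and 17 lower in Jurkat, beside 29.7% and 24.5% of all genes. Lists of lost calls above leave this block out. It ended the Jurkat calls of POLR2C, POLR3B and MED9 (limma, adjusted p = 0.0690, 0.0578 and 0.0914). In Molt-4 it ended those of POLR2K, POLR3F, MED9, MED13L and MED26 (adjusted p = 0.0549 to 0.0846). Differences of the responses lost their calls for POLR3D, MED18 and MED26 (adjusted p = 0.06 to 0.0844). With the block the log2 ratio of POLR3G to POLR3GL differed by -1.17 (exact permutation, adjusted p = 0.0938, against 0.015 without the block). That of MED13L to MED13 differed by 0.28 (adjusted p = 0.0938). Swaps within 6 pairs give 64 arrangements and a smallest p of 0.0312, which POLR3G to POLR3GL had and which alone among 3 pairs adjusts to 0.0938, so this loss says nothing about stability. With 1 library left out, the difference for MED13L to MED13 was 0.24 to 0.33 and missed the threshold in 4 cases, at 0.24 to 0.26, and that for MED12L to MED12 was 0.33 to 0.62 and passed in 3, at 0.57 to 0.62. The cause was not tested. Depth is unknown and limits what low FPKM values can show.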
